A study of Homo sapiens with 30 samples.

Results

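Knockout lines of 4 genes of the secretory pathway were compared with knockout lines of 4 autophagy genes. The 24 libraries of these 8 lines, out of 30 libraries in 10 groups, were chosen by the genotype in the sample titles, 12 on each side. RNA was sequenced from the 3' ends of transcripts, so a gene is counted by tags close to its end. All 8 lines were derived from HEK28, a human embryonic kidney line that secretes coagulation factor VIII, by CRISPR aimed at 1 gene, were grown without treatment and were harvested before the wells were full. The remaining 6 libraries, 3 of HEK28 and 3 of the parental HEK line, entered no test and serve as a reference for levels.

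The secretory side consisted of the CANX, CALR, LMAN1 and MCFD2 knockouts (SKO in the titles), and the autophagy side of the GABARAP, GABARAPL1, GABARAPL2 and ATG7 knockouts ("GABA", "GABA L1", "GABA L2" and "ATG 7" in the titles). Each knockout is represented by 1 line with 3 libraries, and the titles give 1 line number for each knockout. The labels do not say whether a line is a single clone, nor whether its 3 libraries came from separate cultures. The line was therefore the unit of comparison, with 4 line means against 4, and the spread within a line may be technical. With 1 line per gene, the effect of a knockout and any other difference of that line cannot be told apart.

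Calnexin (CANX) and calreticulin (CALR) are lectin chaperones that hold newly made glycoproteins in the endoplasmic reticulum until they are folded. LMAN1 and MCFD2 together form a cargo receptor that loads factor V and factor VIII into COPII vesicles leaving that compartment, and loss of either gene causes combined deficiency of the 2 factors. GABARAP, GABARAPL1 and GABARAPL2 belong to the ATG8 family, small ubiquitin-like proteins that are joined to membrane lipid on forming autophagosomes, and ATG7 is the E1-like enzyme that activates them for this step. The first set thus serves the folding and export of proteins that enter the secretory pathway, and the second serves degradation in lysosomes.

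Reads in the genes whose reads could be recovered from the table ranged from 292139 to 2764451 per library on the secretory side (median 636184.5) and from 215732 to 3482459 on the autophagy side (median 780957). Of the 16975 listed genes, between 129 and 2496 had 0 reads in a secretory library and between 73 and 3375 in an autophagy library. LMAN1 knockout replicate 2 and ATG7 knockout replicate 1 had the lowest mean correlations with their line mates across genes, 0.937 and 0.944. The ATG7 library also had the fewest reads. Its chi-square per degree of freedom against its mates, which allows for counting noise, was 1.72 and 1.51. For LMAN1 replicate 2 it was 4.87 and 6.66, and for MCFD2 replicate 3 it was 2.75 and 4.52. Without LMAN1 replicate 2, 455 genes had line means that did not overlap between the sides. Without ATG7 replicate 1 there were 477, and without MCFD2 replicate 3 there were 494, against 477 with all libraries. All values are log2 levels, in reads per gene length and library size up to a constant, so a level is comparable between libraries for 1 gene. A difference is the secretory mean minus the autophagy mean.

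The transcript of each targeted gene was lowest, among the 8 line means, in the line in which it was targeted. LMAN1 had a line mean of 4.38 in its own knockout and 6.95 to 7.95 in the other lines, and CALR one of 3.92 against 6.00 to 6.65. MCFD2 stood at 7.24 against 8.55 to 8.97, and CANX at 8.65 against 9.58 to 10.23. The margins were smaller for the autophagy genes. ATG7 had a line mean of 0.39 against 1.10 to 2.21, GABARAPL2 one of 6.28 against 6.59 to 7.38, GABARAPL1 one of 1.02 against 1.45 to 3.05, and GABARAP one of 4.89 against 5.03 to 5.90. For 2 of them the rank rested on 1 library. ATG7 had 0 reads in replicate 1 of its own line (level -1.07), and without that library the line mean was 1.12, next to 1.10 in CALR. Without replicate 3 the GABARAP mean in its own line was 5.18, above the 5.03 of CANX. HEK28, in which none of these genes was targeted, had libraries below the own-knockout mean for GABARAPL2 (4.65, 5.40 and 7.76) and MCFD2 (7.16, 8.24 and 8.97). It also did for GABARAPL1 (1.73, 0.70 and 2.07) and ATG7 (2.40, 1.44 and 0.30). For CANX, CALR, LMAN1 and GABARAP every HEK28 library lay above that mean. A 3' tag outside an edited stretch need not change when the protein is lost, so these levels do not measure the loss of the protein.

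F8, the factor VIII transcript (ENSG00000185010, native gene on chromosome X, 154835788 to 155026940, GRCh38), had overlapping line means on the 2 sides. On the secretory side they were 9.14 (CANX), 9.81 (CALR), 9.02 (LMAN1) and 9.34 (MCFD2), and on the autophagy side 9.19 (GABARAP), 9.46 (GABARAPL1), 8.81 (GABARAPL2) and 8.85 (ATG7). The means were 9.33 ± 0.34 and 9.08 ± 0.31 (SD, n = 4 lines), a difference of 0.25 with a 95% interval from -0.20 to 0.70. It did not pass the test (adjusted p = 0.778 by limma over all genes; exact two-sided permutation p = 0.314 over 70 assignments of the lines, with 0.0286 as the smallest value possible). The CALR line held the highest F8 level, and without it the difference was 0.09. Against the spread of libraries within lines the same difference had an adjusted p of 0.00655, so the 3 libraries of a line resembled each other more than the lines of a side did. HEK28 itself gave 8.35, 8.01 and 8.49, below every knockout line mean. The 3 parental HEK libraries gave 0, 0 and 2 reads. The transcript thus belongs to HEK28 and the lines derived from it, and the native gene, whose position is given above, need not be its source. In bulk RNA a difference in the share of expressing cells and one in the level per cell cannot be told apart.

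No gene separated the 2 sides at an adjusted p of 0.05 when the line was the unit. Of 11589 genes tested with limma, 0 passed in either direction (0% called), and the lowest adjusted p was 0.0776, for CSPG4. At an unadjusted p of 0.05 there were 929 genes, or 8.02% of those tested, 512 higher (4.42%) and 417 lower (3.6%) on the secretory side. The median difference over all genes was -0.03, the median absolute difference was 0.20, and 216 genes (1.86%) differed by at least 1 log2 unit. In 477 genes (4.12%) the 4 line means of one side lay wholly above those of the other, 237 higher on the secretory side (2.05%) and 240 lower (2.07%). With 1 line left out this count, then of 3 means against 4, ran from 696 (without CALR) to 1453 (without LMAN1).

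The same contrast counted many genes once the line was no longer the unit. Tested against the spread of the 24 libraries within lines, 1106 genes passed (9.54%), 596 higher (5.14%) and 510 lower (4.4%) on the secretory side, and 249 of these also had line means that did not overlap. That test asks whether these 4 lines differ from those 4 lines, not whether lines of the 2 kinds differ. With the line as a random block and a within-line correlation of 0.27, 28 genes passed (0.242%), 20 higher (0.173%) and 8 lower (0.069%), and in 20 of the 28 the line means did not overlap. This fit used that 1 correlation for every gene, so its p values are too small where lines of a side differ more strongly. In MDM2 the line means had SDs of 0.53 and 0.37, and libraries within lines SDs of 0.03 to 0.21. Its adjusted p was 0.0138 in this fit and 0.44 by limma over lines.

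Differences between lines of one side were as large as those between sides. Splitting the variance of each gene over the 24 libraries, the side took a median of 4.81% and held 4.35% of the degrees of freedom. Of the variance summed over genes the side took 8.99%. The degrees of freedom would give an expected mean share only if all 24 libraries were independent, which libraries of a line are not. A median over genes cannot be set directly beside them either. The measure for the side is the variance of lines within a side, which was 40.0% of the summed variance on 6 degrees of freedom, against 8.99% on 1. Lines within a side took a median of 39.4% and 40.0% of the summed variance (26.1% of the degrees of freedom). Libraries within lines took 51.5% and 51.0% (69.6%). The root mean square difference between line means ran from 0.508 to 0.66 within the secretory side, from 0.537 to 0.825 within the autophagy side and from 0.554 to 0.729 between sides. The closest pair was CALR and MCFD2 (0.508), a chaperone and a cargo receptor subunit, and the most distant was GABARAP and GABARAPL2 (0.825), both of the ATG8 family. For 5 of the 8 lines the nearest other line was on the same side. CANX and LMAN1 lay nearest to GABARAPL1, and GABARAPL2 nearest to CANX.

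**Figure D1:**
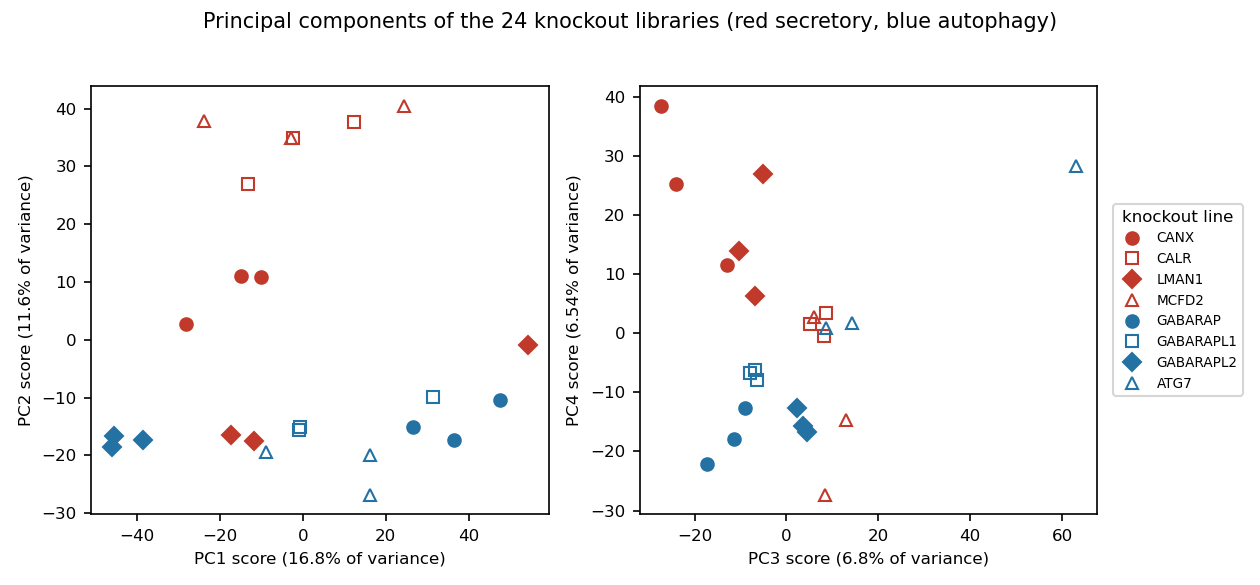
Scores of the 24 knockout libraries on principal components 1 and 2 (left) and 3 and 4 (right), with the share of the variance on each axis; red symbols are secretory and blue symbols autophagy lines, 3 libraries each. The CALR and MCFD2 libraries lie between 26.9 and 40.5 on component 2, above all others, while the LMAN1 libraries lie between -17.5 and -0.9, among or next to the autophagy lines.

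On the second principal component (11.6% of the variance) the CALR and MCFD2 libraries scored between 26.9 and 40.5 and the CANX libraries between 2.7 and 11.1. The LMAN1 libraries scored between -17.5 and -0.9 and overlapped with the autophagy libraries, which lay between -26.8 and -9.9. The first component (16.8%) did not follow the sides. It placed GABARAPL2 at one end (-46.0 to -38.6), with GABARAP (26.6 to 47.5) and LMAN1 replicate 2 (54.2) at the other. GABARAPL1 replicate 2 (31.4) lay within the GABARAP range, apart from its line mates (-1.0 and -0.8).

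Among genes higher on the secretory side, CSPG4 and PHPT1 had no overlap between the 12 libraries of one side and the 12 of the other. CCDC144B was the only such gene in the opposite direction, and these 3 made up 0.0259% of the genes tested. PHPT1 (ENSG00000054148, chromosome 9, 136848724 to 136851027) encodes a phosphohistidine phosphatase. Its line means were 5.82 (CANX), 5.83 (CALR), 5.80 (LMAN1) and 6.16 (MCFD2), against 4.83 (GABARAP), 4.90 (GABARAPL1), 5.21 (GABARAPL2) and 4.63 (ATG7). The lowest secretory library, at 5.57, lay 0.33 above the highest autophagy library, at 5.24. The difference was 1.01 (SE 0.19, 2.01-fold), with an adjusted p of 0.286 by limma over lines and of 0.00159 with the line as a random block. HEK28 gave 6.19, 6.05 and 5.19, so its replicates 1 and 2 lay with the secretory lines and replicate 3 within the autophagy range.

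CSPG4 (ENSG00000173546, chromosome 15, 75674322 to 75712848) encodes a chondroitin sulfate proteoglycan of the cell surface. Line means were 3.58 (CANX), 4.02 (CALR), 3.56 (LMAN1) and 3.84 (MCFD2) on the secretory side and 1.52 (GABARAP), 1.72 (GABARAPL1), 1.66 (GABARAPL2) and 2.40 (ATG7) on the autophagy side. The difference was 1.93 (SE 0.24, adjusted p = 0.0776), and the nearest libraries of the 2 sides were 0.01 apart. The gene is thinly read, with 222 reads over the 12 secretory and 59 over the 12 autophagy libraries, 2 of the latter at 0 reads. With the line as a random block its adjusted p was 0.101. Without the ATG7 line its adjusted p over lines was 0.0305, and CSPG4 was then the 1 gene that passed.

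CCDC144B (ENSG00000154874, chromosome 17, 18537800 to 18625617), a coiled-coil pseudogene with close relatives whose reads may be mixed with its own, was lower on the secretory side. Its line means were 5.74 (CANX), 5.51 (CALR), 5.50 (LMAN1) and 5.17 (MCFD2) against 6.66 (GABARAP), 6.85 (GABARAPL1), 6.33 (GABARAPL2) and 6.82 (ATG7). The difference was -1.19 (SE 0.19, adjusted p = 0.248), with a gap of 0.20 between the nearest libraries. The 3 HEK28 libraries, at 6.98, 6.83 and 6.33, lay in the autophagy range.

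**Figure D2:**
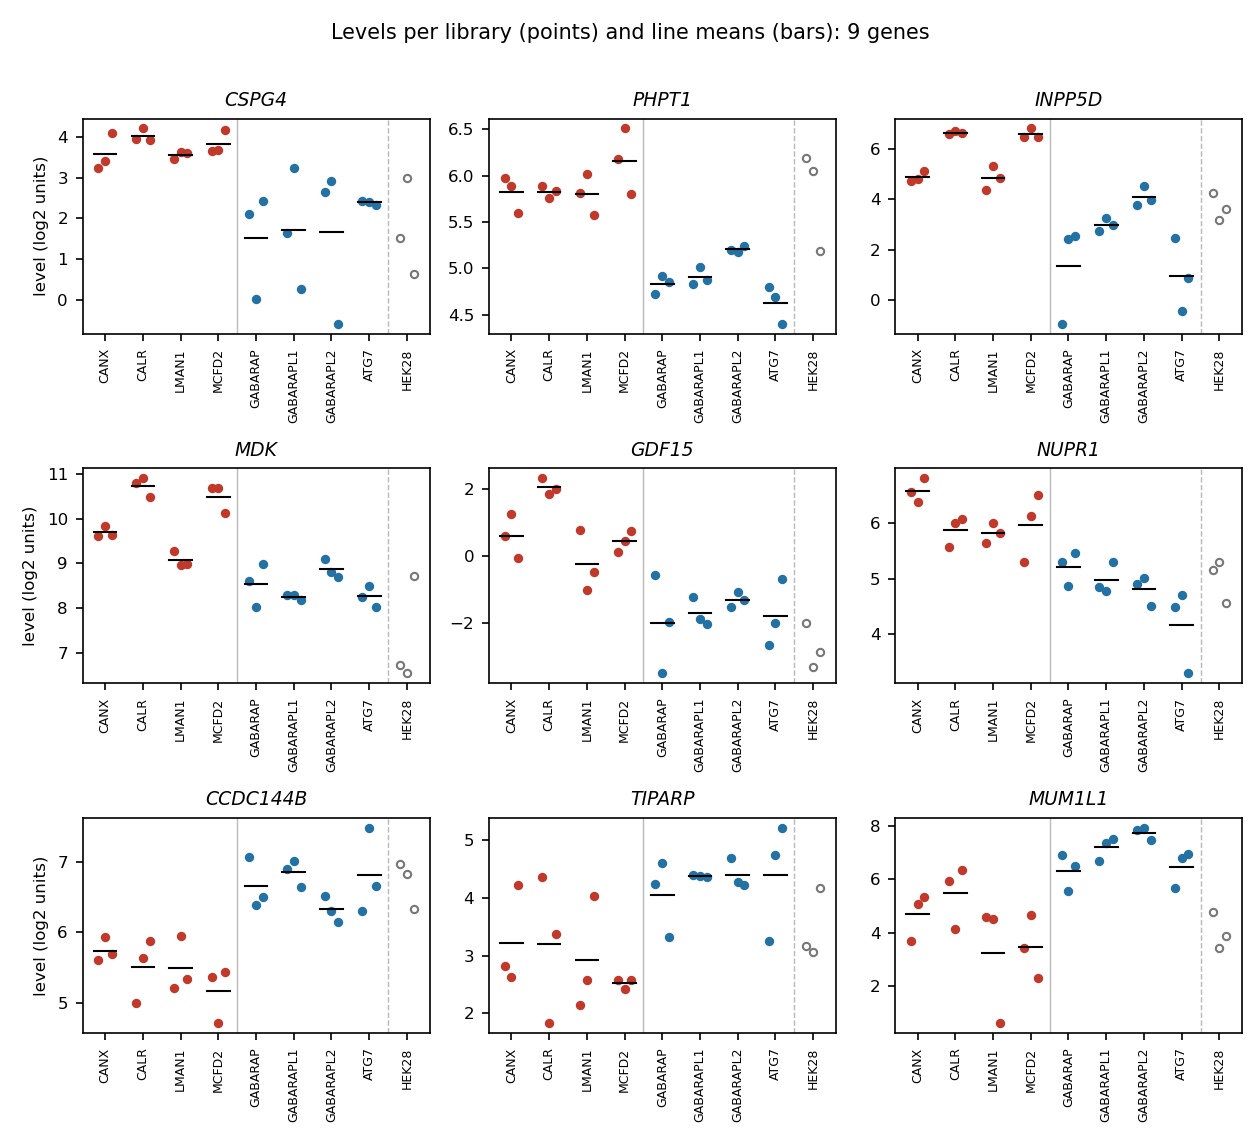
Levels of 9 genes (vertical axes, log2 units) in every library of the 8 knockout lines and of HEK28 (points, with bars at the line means; red secretory, blue autophagy, open grey HEK28). In each of the 9 the 4 secretory line means lie on one side of the 4 autophagy line means; in PHPT1 the sides are 0.33 apart across single libraries, while in TIPARP and MUM1L1 single libraries overlap.

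The other genes of smallest p with line means that did not overlap were named by rank, and none passed the adjusted test. INPP5D, which encodes the inositol phosphatase SHIP1 and is best known in blood cells, showed the widest difference, 3.39 (SE 0.67, adjusted p = 0.31). Its line means were 4.88 (CANX), 6.63 (CALR), 4.85 (LMAN1) and 6.59 (MCFD2) against 1.34 (GABARAP), 2.99 (GABARAPL1), 4.09 (GABARAPL2) and 0.96 (ATG7), with 1798 reads on the secretory and 215 on the autophagy side. CALR and MCFD2 were alike and above CANX and LMAN1, and GABARAPL2 lay closest to the secretory lines. HEK28 gave 4.25, 3.16 and 3.61, below the 4 secretory line means and above those of GABARAP, GABARAPL1 and ATG7.

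SMARCA1, an imitation-switch chromatin remodeller on chromosome X, had line means of 6.71 to 7.58 on the secretory side and 5.34 to 6.34 on the autophagy side (difference 1.38, adjusted p = 0.286). MSRB2, a mitochondrial methionine sulfoxide reductase, ranged from 2.61 to 3.65 against 1.43 to 2.06 (difference 1.36, adjusted p = 0.31). SCARA5, a scavenger receptor that binds ferritin, ranged from 5.19 to 5.71 against 3.83 to 4.71 (difference 1.13, adjusted p = 0.31). SDAD1P1, a pseudogene whose reads may belong to its parent gene, differed by 1.64 on 215 and 59 reads. With the line as a random block the adjusted p values were 0.0138 for INPP5D and SMARCA1 and 0.0234 for MSRB2, and 0.11 for SCARA5 and 0.192 for SDAD1P1, which did not pass.

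MDK, chosen after its values were seen, encodes midkine, a secreted heparin-binding growth factor. Its line means were 9.69 (CANX), 10.74 (CALR), 9.07 (LMAN1) and 10.50 (MCFD2) against 8.53 (GABARAP), 8.26 (GABARAPL1), 8.87 (GABARAPL2) and 8.26 (ATG7), a difference of 1.52 (SE 0.32). It had the second smallest p with the line as a random block (adjusted p = 0.00456) and did not pass over lines (adjusted p = 0.31). LMAN1 knockout libraries, at 8.96 to 9.27, came within reach of GABARAPL2 replicate 1 at 9.10.

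On the lower side, TIPARP, an ADP-ribosyltransferase induced by the aryl hydrocarbon receptor, had line means of 2.53 to 3.23 in the secretory lines and 4.06 to 4.40 in the autophagy lines (difference -1.34, SE 0.22, adjusted p = 0.248). Its 24 libraries overlapped, from 1.83 to 4.37 against 3.25 to 5.22. MUM1L1 differed most in this direction, at -2.73 (SE 0.48, adjusted p = 0.286), but on 49 reads in all 12 secretory libraries and 231 in the autophagy libraries. HEK28 had 0 reads of MUM1L1 in each of its 3 libraries, so here the secretory lines were the nearer to it. LPCAT4, a lysophospholipid acyltransferase, differed by -1.41, FRMPD1, a scaffold protein with a FERM and a PDZ domain, by -1.45 and LAIR1, an inhibitory immune receptor that binds collagen, by -1.0. TMEM267 and NAPEPLD, the latter an enzyme of endocannabinoid synthesis, both differed by -0.97. CTB-129P6.7 differed by -1.08 and the zinc finger gene ZNF585B by -0.80. These 7 had 93 to 344 reads on the secretory side and adjusted p values from 0.286 to 0.44. With the line as a random block MUM1L1 passed (adjusted p = 0.049). TIPARP (0.182) and the 7 (0.205 to 0.597) did not. Against the spread within lines, TMEM267 (adjusted p = 0.168), CTB-129P6.7 (0.108), NAPEPLD (0.092) and FRMPD1 (0.0505) did not pass either.

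Genes that p53 activates were higher on the secretory side in nearly every case, and theirs was the only one of 36 lists whose median deviation divided the 4 lines of one side from the 4 of the other. The p53 protein is a transcription factor stabilised by DNA damage and other stress, which binds a paired element in its target genes. HEK293-type lines carry adenoviral proteins that bind p53 and restrain it. Of 23 tested members 22 were higher on the secretory side and 1 was lower, against 46.6% higher over all genes, with a median difference of 0.63 against -0.03. None passed the adjusted test. At an unadjusted p of 0.05, 13 members were higher (4.42% of all genes were), and in 9 of the 23 (39.1%, against 2.05% of all genes) the line means did not overlap. Against the spread within lines 15 members passed, all higher (background 5.14%), and with the line as a random block MDM2, CDKN1A and PHLDA3 did (background 0.173%). The list was chosen with earlier results of these data known, so its counts are a description.

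The members act at different points of the response. CDKN1A (ENSG00000124762, chromosome 6, 36676460 to 36687339) encodes p21, which halts the cell cycle. Its line means were 3.29 (CANX), 4.96 (CALR), 4.04 (LMAN1) and 3.88 (MCFD2) against 2.73 (GABARAP), 3.08 (GABARAPL1), 3.16 (GABARAPL2) and 2.05 (ATG7). The difference was 1.29 (SE 0.36, adjusted p = 0.473), and CANX, lowest of its side, lay next to GABARAPL2. HEK28 gave 3.11, 2.81 and 2.52, in the autophagy range.

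MDM2 (ENSG00000135679, chromosome 12, 68808176 to 68850686) encodes the ubiquitin ligase that degrades p53 and is itself a target. Line means were 10.92 (CANX), 12.04 (CALR), 11.67 (LMAN1) and 11.05 (MCFD2) against 10.46 (GABARAP), 10.36 (GABARAPL1), 10.84 (GABARAPL2) and 9.92 (ATG7), a difference of 1.02 (SE 0.26, adjusted p = 0.44). Its libraries within a line were close, and the sides overlapped only where CANX replicate 2 (10.74) met the GABARAPL2 libraries (10.74 to 10.89). HEK28 gave 10.18, 10.80 and 11.11, the first among the autophagy libraries, the next where the sides meet and the last among the secretory libraries.

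The DNA repair genes of the list had the same direction. XPC and DDB2 recognise bulky lesions for nucleotide excision repair. XPC line means were 8.88 to 9.21 against 8.18 to 8.48 (difference 0.72, SE 0.14, adjusted p = 0.31), and those of DDB2 were 2.84 to 3.47 against 1.96 to 2.80 (difference 0.81, adjusted p = 0.534). POLH, the translesion polymerase eta, differed by 0.63, with line means that overlapped. PHLDA3, an inhibitor of AKT at the membrane, had line means of 2.13 to 3.11 against 0.85 to 1.58 (difference 1.33, SE 0.28, adjusted p = 0.31). SPATA18, a mediator of mitochondrial quality control, differed by 2.17 on 201 and 55 reads.

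SESN1 and SESN2, the sestrins that restrain mTORC1, differed by 0.72 and 0.52, and ZMAT3, an RNA-binding protein, by 0.55. In SESN2 the CANX line stood highest, at 10.31, while CALR and MCFD2 were at 9.49 and 9.48, close to ATG7 at 9.39. SESN2 is also a target of ATF4, a factor of the amino acid and unfolded protein responses. Among genes that promote cell death, the receptors TNFRSF10B and FAS differed by 0.51 and 0.19, and BBC3 and BAX, which act at mitochondria, by 0.48 and -0.23. Line means overlapped in all 4.

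By line, the median deviation of the p53 list from the 8-line mean was 0.18 in CANX, 0.57 in CALR, 0.29 in LMAN1 and 0.44 in MCFD2. It was -0.45 in GABARAP, -0.26 in GABARAPL1, -0.07 in GABARAPL2 and -0.58 in ATG7. The 4 secretory lines thus lay above the 4 autophagy lines also as a list, with the smallest step between CANX and GABARAPL2. Leaving out a line gave list medians from 0.58 (without CALR) to 0.78 (without GABARAPL2), with 9 to 11 members higher without overlap, and leaving out a library gave medians of 0.58 to 0.75. Without LMAN1, 1 member, BAX, was lower without overlap, at -0.53 (unadjusted p = 0.0431 by limma). The median of HEK28 minus the secretory mean over the members was -0.70 for the mean of the 3 HEK28 libraries and -0.54 for replicate 3 alone. HEK28 minus the autophagy mean was 0.10 and 0.26, so both put HEK28 nearer to the autophagy lines by the median. Gene by gene the split was less clear. The mean of the 3 HEK28 libraries was nearer to the secretory mean in 9 of 23 members (39.1%, against 48.2% of all genes). Replicate 3 was nearer to it in 11 (47.8%, against 44.6%). In the 9 members higher without overlap, each was nearer to the secretory mean in 4 (44.4%).

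Promoter sequences show where a p53 element lies near some of these genes. RefSeq promoters (GRCh38.p14, 250 bases before to 50 after a start site) were matched by symbol for 18 of the 23 members, and each window of 20 bases was compared with the p53 response element consensus, 2 joined half-sites of 10 bases, which reads alike on both strands. The best window had at most 3 mismatches in 7 of the 18, against 6.39% of all 27305 genes with a promoter. Of the 8 matched members whose line means did not overlap, 4 did. Their best windows are printed 5' to 3' on the gene's strand, because they can be compared base by base, with the bases that fit the consensus in capitals and the mismatches in lower case.
DDB2, chr11:47214969-47214988, plus strand: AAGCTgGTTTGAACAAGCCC
MDM2, chr12:68808923-68808942, plus strand: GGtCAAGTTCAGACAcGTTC
SESN1, chr6:109009018-109009037, minus strand: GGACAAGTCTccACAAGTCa
XPC, chr3:14178570-14178589, minus strand: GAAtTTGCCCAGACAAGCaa

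DDB2 came closest to the consensus, with 1 mismatch, MDM2 had 2, and SESN1 and XPC had 3. FAS and AEN, with 2 mismatches, and FDXR, with 3, were as close, and their line means overlapped. Among members whose line means did not overlap, ZMAT3 had 4 mismatches and SESN2 and SPATA18 had 5. Only the best window of a promoter was kept, so other windows that come close to the consensus are not marked. The 150 bases before the MDM2 start site, which lies inside the gene at the promoter known to respond to p53, are shown with the best window in capitals (chr12:68808867-68809016, plus strand).
MDM2: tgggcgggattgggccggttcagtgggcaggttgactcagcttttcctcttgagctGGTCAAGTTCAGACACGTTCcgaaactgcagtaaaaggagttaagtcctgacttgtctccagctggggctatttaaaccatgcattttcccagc

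CDKN1A, whose known elements lie farther upstream than these windows reach, had 5 mismatches at best. A match is a description of the letters and does not show binding, and no binding was measured here.

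Stress genes outside the p53 list moved less evenly. GDF15, a secreted stress cytokine listed here with the ATF4 targets, had line means of 0.61 (CANX), 2.07 (CALR), -0.24 (LMAN1) and 0.45 (MCFD2) against -2.01 (GABARAP), -1.70 (GABARAPL1), -1.30 (GABARAPL2) and -1.78 (ATG7). The difference was 2.42 (SE 0.45, adjusted p = 0.286), on 369 and 47 reads, and HEK28 had 0 reads in its 3 libraries. NUPR1, a small stress-induced chromatin protein, ranged from 5.82 to 6.58 against 4.16 to 5.21 (difference 1.28, adjusted p = 0.31). Yet the 39 tested ATF4 targets as a list had a median difference of 0.11. At an unadjusted p of 0.05, 3 members were higher and 0 lower (background 4.42% and 3.6%): GDF15, NUPR1 and SESN2, the last also in the p53 list. The same 3 (7.69%, against 2.05% of all genes) had line means that were higher without overlap. With the line as a random block 2 members passed, both higher (background 0.173%). Their median deviation was 0.77 in CANX and -0.39 to 0.17 in the other 7 lines, so the CANX line stood apart from the secretory lines too.

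Hypoxia and glycolysis genes were higher on the secretory side in the median but overlapped between sides. Of 21 tested targets of the hypoxia-inducible factors, 16 were higher and 5 lower, with a median of 0.34, and 6 were higher and 1 lower at an unadjusted p of 0.05 (background 4.42% and 3.6%). In none did the line means separate. SLC2A1, the glucose transporter GLUT1, differed by 1.21, from 2.43 to 3.66 against 0.93 to 2.69. PDK1, which keeps pyruvate out of mitochondria, differed by 1.24, and P4HA1, a collagen prolyl hydroxylase subunit, by 0.99. ADM, the peptide hormone adrenomedullin and also a hypoxia target, differed by -0.74. The CALR line gave the highest list deviation (0.59) and LMAN1 was below 0 (-0.13). The number of members higher at p of 0.05 was 3 without CALR, GABARAP or ATG7, 4 without CANX or MCFD2 and 9 without LMAN1. The 20 glycolysis genes had a median of 0.23, and of 0.08 without CALR, LDHA among them at 0.43.

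Genes of the matrix and its receptors showed a like pattern. Of 28 tested collagens, laminins and integrins, 23 were higher on the secretory side, with a median of 0.39. At an unadjusted p of 0.05, 6 were higher and 0 lower (background 4.42% and 3.6%), and in 3 (10.7%, against 2.05% of all genes) the line means were higher without overlap. ITGA2, a collagen receptor subunit, had line means of 7.08 to 7.65 against 5.57 to 6.89 (difference 1.08, SE 0.27, adjusted p = 0.44). COL5A1 differed by 1.24 and COL6A2 by 0.96, both with overlap. MCFD2 (0.58) and CALR (0.49) carried the list, and LMAN1 (-0.17) lay with the autophagy lines. With 1 line left out, the number at p of 0.05 ran from 4 (without CALR, MCFD2 or ATG7) to 11 (without LMAN1).

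**Figure D3:**
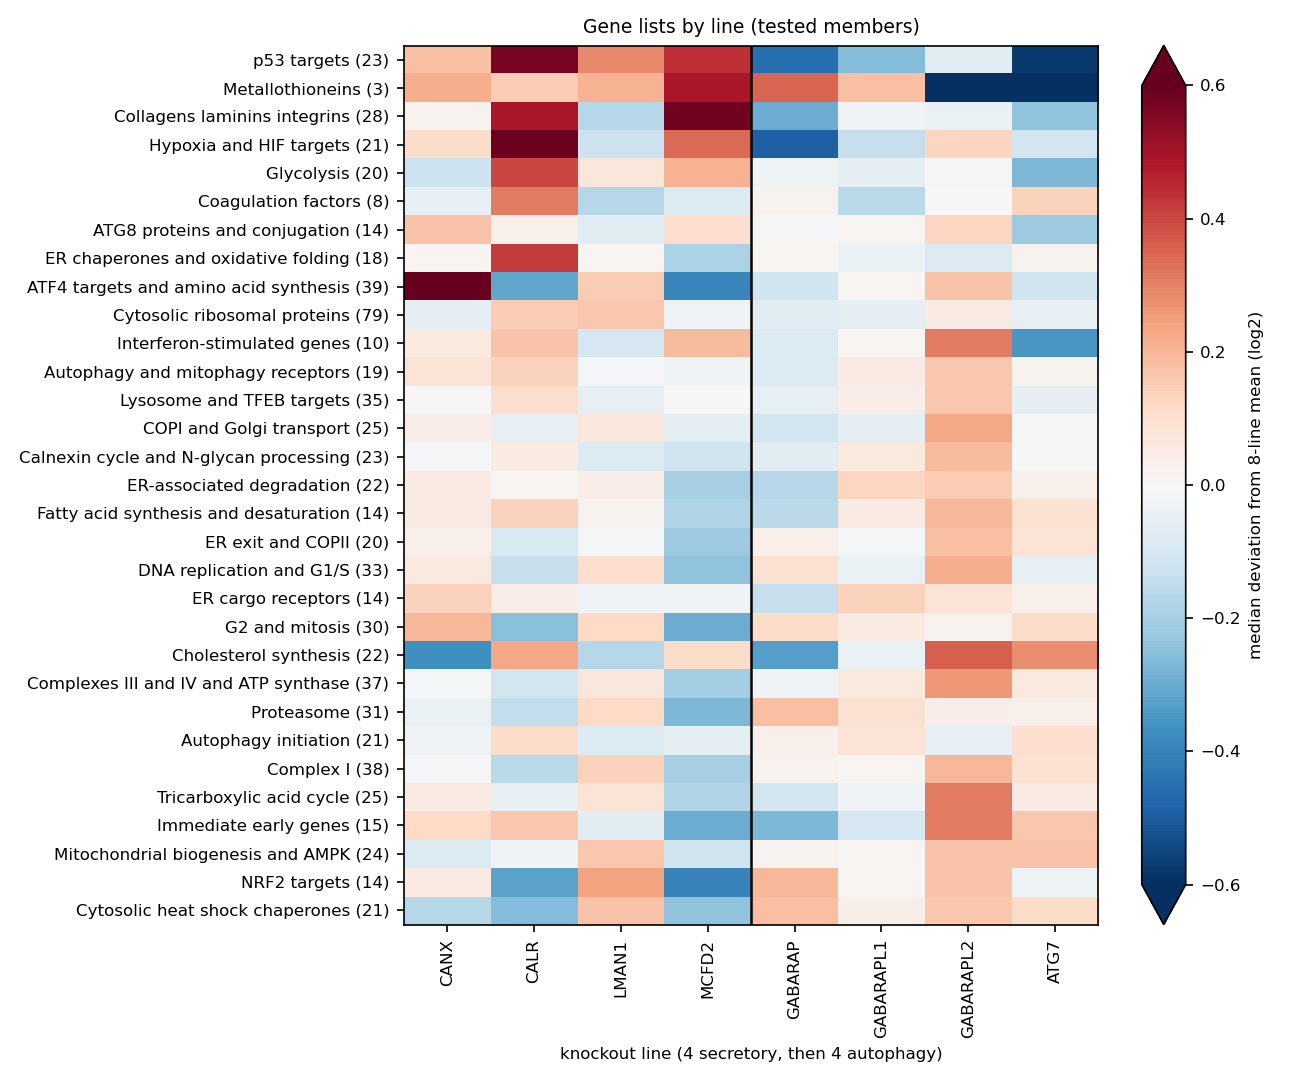
Median deviation of each gene list from the 8-line mean (colour, log2) in the 4 secretory and 4 autophagy lines (columns); the number of tested members is in parentheses and rows are ordered by the median difference between sides. The p53 row divides at the black line, whereas ATF4 targets are deepest red in CANX (0.77) and matrix genes are red in CALR and MCFD2 (0.49 and 0.58).

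The pathways to which the targeted genes belong had list medians close to that of all genes. The 23 genes of the calnexin cycle and N-glycan processing, CANX and CALR among them, had a median of -0.04, and of 0.02 without these 2. In 3 members (13.0%, against 2.07% of all genes) the line means were lower without overlap, and 1 of them was lower at an unadjusted p of 0.05 (background 3.6%). This was MOGS, the glucosidase that makes the first cut in the N-glycan, at 7.03 to 7.57 against 7.68 to 8.28 (difference -0.63, adjusted p = 0.515). PRKCSH, the glucosidase II beta subunit, differed by -0.26, and DAD1, a subunit of the oligosaccharyltransferase, by -0.15. The 18 endoplasmic reticulum chaperones and oxidoreductases had a median of 0.13 with 0 members at that level. PDIA4 came nearest, at 0.57. Their deviation was 0.42 in the CALR line and -0.19 to 0.02 in the other 7.

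Among the 20 genes of exit from the endoplasmic reticulum, COPII included, the median was -0.09. In 3 (15.0%, against 2.07% of all genes) the line means were lower without overlap: SAR1B, a GTPase that starts the coat, at -0.23, SEC13, an outer coat subunit, at -0.33 and TMED9, a p24 protein, at -0.10. SAR1A, the other such GTPase, differed by -0.48 with overlap and was the 1 member at an unadjusted p of 0.05. The 14 cargo receptors had a median of -0.12, also without LMAN1 and MCFD2. SURF4, a receptor for soluble cargo, differed by -0.26, and KDELR3, a retrieval receptor, differed by 0.35. The 25 COPI and Golgi genes had a median of -0.02. ARF4, a Golgi GTPase, differed by -1.04 (5.28 to 6.15 against 6.16 to 7.6, adjusted p = 0.52) and COPG2, a COPI coat subunit, by 0.51. The 22 genes of ER-associated degradation had a median of -0.05, with UBXN8 at -0.75.

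On the autophagy side of the biology, the 14 tested ATG8 genes and conjugation enzymes had a median of 0.18 and 0 members at an unadjusted p of 0.05. The 4 targeted genes are in this list, and the median of the other 10 was 0.04. MAP1LC3B, the ATG8 protein used most often to follow autophagosomes, differed by -0.46, with line means of 8.21 to 8.89 against 8.45 to 9.44. ATG16L1, part of the enzyme that places ATG8 on lipid, differed by -0.70. The 21 initiation genes had a median of -0.15, and UVRAG, a subunit of the phosphatidylinositol 3-kinase complex, differed by 0.49 (6.46 to 6.88 against 5.97 to 6.35, adjusted p = 0.559). The 19 selective receptors had a median of 0.00. The 35 lysosomal genes had a median of -0.02, with ATP6V1D, a proton pump subunit, at 0.58. Over these 4 lists together no gene passed the adjusted test.

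Genes for protein folding in the cytosol and for respiration leaned the other way. Of 21 tested heat shock chaperones 16 were lower on the secretory side, with a median of -0.27, 4 lower and 1 higher at an unadjusted p of 0.05 (background 3.6% and 4.42%). CHORDC1, a partner of HSP90, differed by -0.80 (SE 0.21, adjusted p = 0.448) and DNAJA1 by -0.43, while HSPB1, a small heat shock protein, differed by 0.55. The LMAN1 line, at 0.17, again lay with the autophagy lines (0.04 to 0.18), and the other 3 secretory lines were at -0.26 to -0.17. Without LMAN1 the list median was -0.40, with 9 members lower at that level, and 2 were without CALR, MCFD2 or GABARAPL2.

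Of 38 complex I genes 30 were lower on the secretory side (median -0.15), as were 31 of 37 genes of complexes III and IV and the ATP synthase (median -0.14) and 27 of 31 proteasome genes (median -0.15). Line means were lower without overlap in 1 complex I gene (2.63%), against 2.07% of all genes. They were so in 3 genes of complexes III and IV and the ATP synthase (8.11%) and in 0 of the proteasome. At an unadjusted p of 0.05, 2, 2 and 1 members of the 3 lists were lower (background 3.6%). NDUFB7 differed by -0.61 and ATP5D by -0.79, both with line means that did not overlap, and COX6B1 by -0.36, and all 3 lie on chromosome 19. In the complex I list the GABARAPL2 line was highest (0.20) and MCFD2 and CALR were lowest (-0.20 and -0.16). Of 79 cytosolic ribosomal protein genes 64 were higher on the secretory side, by a median of 0.08, within which CALR and LMAN1 stood at 0.15 and 0.16 and the other 6 lines at -0.07 to 0.05.

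Genes of growth showed small differences in both directions. Of 33 replication genes 12 were higher and 21 lower (median -0.09). CDC45, UHRF1 and GINS2, which act in replication origin firing and the upkeep of DNA methylation, differed by -0.55, -0.45 and -0.38. These 3 (9.09%, against 2.07% of all genes) had line means that did not overlap and were the 3 lower members at an unadjusted p of 0.05. PRIM1, a primase subunit, and TYMS, which makes thymidylate, were higher at that level, at 0.82 and 0.68, with overlap. Of 30 genes of mitosis 24 were lower (median -0.13), BUB1B of the spindle checkpoint among them at -0.45. The 14 NRF2 targets had a median of -0.25, with FTL, the ferritin light chain, at 6.81 to 7.36 against 7.37 to 8.02 (difference -0.62, adjusted p = 0.538). All 3 lists were lowest in MCFD2 and CALR.

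Genes whose line means did not overlap were spread unevenly over chromosomes. On chromosome 19, 41 of 771 tested genes (5.32%) were lower on the secretory side without overlap, against 2.07% of all genes, and the chromosome's median difference was -0.22. This came with medians of -0.28 in the CALR line and -0.11 in MCFD2, and of 0.06 to 0.16 in the autophagy lines. On chromosome 20, 16 of 285 genes (5.61%) were lower, with a median of -0.38 in the CALR line. On chromosome 18, 9 of 170 genes (5.29%) were higher and 0 lower, with a median of -0.54 in the GABARAP line and 0.04 to 0.13 in the other 7. Levels of neighbouring genes thus moved together within single lines, and their part in the counts of separated genes was not tested. LMAN1, on chromosome 18, is also low in the GABARAP line, at 6.95.

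Markers of cell types were few. Of the kidney epithelial list 3 of 14 genes were tested, and the summed level of its listed genes, as CPM (reads scaled to library size), ranged from 74.7 to 191 on the secretory side and from 77.7 to 142 on the autophagy side. KRT18 differed by 0.51 and KRT8 by 0.22. The neurofilament genes NEFL and NEFM, which HEK293 cells are known to express, differed by 0.16 and -0.15. Of 11 fibroblast markers 2 were tested, COL1A1 at -0.22 and VIM at 0.03, with median summed levels of 541 CPM against 488. Of 8 endothelial markers 1 was tested, EGFL7, at 0.97 with overlapping line means (summed levels 9.41 to 34.0 against 2.62 to 21.3 CPM). Of 12 blood cell markers 3 were tested (summed levels 3.96 to 157 against 2.62 to 126 CPM). CD4, a T cell coreceptor, differed by 1.06 on 147 and 10 reads, with a line mean of 8.36 in CANX and of 1.87 to 4.43 in the other lines. The globin genes HBA1 and HBB differed by -1.02 and -0.79, and the HBA1 line means did not overlap (2.06 to 3.64 against 3.65 to 4.04), although its single libraries ranged from -0.43 to 6.01 and from 0.31 to 6.27. The part of these markers in other results was not tested.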

How the data were processed

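Per the labels' protocols, 3' libraries were made from 8 knockout lines, HEK28 and the parental line. Tools listed in the submitters' processing notes are cutadapt, FastQC, Bowtie and TopHat2, with the build hg38. How reads were counted, annotated and normalised was not given in the sources used here, and the labels name no batch. The deposited table holds log2 values with 5 significant digits, and from those values each is a whole number of reads plus 0.5, divided by a gene length and a library size. Reads were recovered for 16823 genes and not for 152. Positions came from GENCODE 29 (16938 of 16975 IDs matched).

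Each line's 3 log2 values were averaged, and 4 line means were tested against 4 with limma 3.58.1 in R 4.3.3 (trend, robust empirical Bayes), two-sided, with Benjamini-Hochberg adjustment over 11589 genes and a threshold of 0.05. A gene was tested if at least 3 of the 24 libraries reached 14.88 CPM, worth 10 reads at the median depth. The script was tested on simulated data. Counts of reads carry counting error and further differences between libraries of a line, and depth limits most genes with under 10 reads per library.

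Replicate libraries differed beyond counting noise (chi-square per degree of freedom 1.51 to 6.66), and none was treated as a duplicate. Replicate numbers did not pair the samples. The named genes are the 8 targets, F8, the 10 of smallest p in each direction with line means that did not overlap and at least 10 reads per library in the higher side, genes whose 12 and 12 libraries did not overlap, and up to 3 members of smallest p per list. Others are named as examples after their values were seen. The members, lists and rules were chosen with earlier results of these data known. The 36 gene lists are described by counts and medians, without a test, and the medians without targeted genes were added after seeing the data. Alternatives changed the unit, scaling, offset, filter, moderation, lines and libraries.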

Additional observations from a re-analysis of the deposited data

Results flagged for a closer look

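Among the 4 line means of a side, 1 line lay far from the other 3 in 6 of the 58 groups examined (29 genes, 2 sides), where chance gives about 1 in 20. In 2 of these the line is the knockout of that gene: LMAN1 was at 4.38 in its own knockout against 7.84 to 7.95 in the other secretory lines, and MCFD2 was at 7.24 against 8.89 to 8.97. Among the autophagy lines, LMAN1 was at 6.95 in GABARAP against 7.73 to 7.87, and CALR at 6.00 in ATG7 against 6.57 to 6.65. PHPT1 was at 6.16 in MCFD2 against 5.80 to 5.83 in the other secretory lines, farther from the autophagy side. TIPARP was at 4.06 in GABARAP against 4.38 to 4.40, nearer to the secretory side.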

How the results depend on the processing

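With the line as the unit, 0 genes passed under the median, summed reads, both scalings, the offset of 2 reads, both filters, plain moderation and each left-out library. Leaving out a line gave 0 to 1 gene. Counts of 1106 (within lines), 1087 (with the replicate block) and 28 (random block) arose with libraries as the unit. Replicate numbers did not pair the samples (10 of 24 libraries correlated best with their own number). Genes with line means that did not overlap numbered 376 to 700 under the other settings, 423 to 534 without a library and 696 to 1453 without a line, where 3 means face 4 (819 without CANX, 696 CALR, 1453 LMAN1, 721 MCFD2, 889 GABARAP, 749 GABARAPL1, 1162 GABARAPL2, 721 ATG7). The F8 difference was 0.25 (adjusted p = 0.00655) within lines and 0.25 (adjusted p = 0.00935) with the replicate block, and otherwise did not pass, from 0.09 (without CALR) to 0.38. Without LMAN1 replicate 2 or ATG7 replicate 1 it was 0.26, and 455 and 477 genes did not overlap. Of 2878 values of 72 named genes, 4 reversed, each when the gene's own knockout was left out. With a line left out, differences ran from -0.37 to 0.16 for CANX, from -0.90 to 0.29 for LMAN1, from -0.34 to 0.24 for MCFD2 and from -0.02 to 0.33 for GABARAPL2. Another 120 passed in place of missing the threshold, all with libraries as the unit except CSPG4 without ATG7. Depth limits CSPG4, MUM1L1 and GDF15, which had libraries at 0 reads.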

Other observations

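HEK28 did not sit with one side. Over the 237 genes that were higher on the secretory side without overlap, HEK28 replicate 3 was nearer to the autophagy mean in 141 and to the secretory mean in 96. Over the 240 lower genes it was nearer to the autophagy mean in 129 and to the secretory mean in 111. Over all 11589 tested genes it was nearer to the secretory mean in 44.6%. The mean of the 3 HEK28 libraries was nearer to the secretory mean in 39.2% of the higher and 55.8% of the lower genes. These values rest on 1 library or on 3 that differ among themselves.

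Metallothioneins, which bind zinc and copper, divided the autophagy lines instead of the sides. MT2A was at 6.54 and 6.41 in GABARAPL2 and ATG7 and at 7.28 to 7.81 in the other 6 lines, and MT1X was at 3.47 and 4.53 against 4.95 to 5.92. Genes of cholesterol synthesis had median deviations of 0.36 and 0.28 in GABARAPL2 and ATG7, 0.23 in CALR, and -0.37 and -0.33 in CANX and GABARAP. PMVK, the phosphomevalonate kinase, was at 7.30 to 7.51 in the 4 secretory lines and at 5.98, 6.35, 7.37 and 6.90 in GABARAP, GABARAPL1, GABARAPL2 and ATG7. BST2, the interferon-induced tetherin, ranged from 1.85 to 4.33 on the secretory side and from -0.09 to 2.42 on the autophagy side (difference 1.93, adjusted p = 0.534).

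Several genes that passed with the line as a random block are named here after their values were seen. NECTIN4, an adhesion protein of epithelia, differed by 1.76, UCP2, a mitochondrial carrier, by 1.5, and CYFIP2, a regulator of actin, by 1.09, each with line means that did not overlap. DDR1, a collagen receptor kinase, differed by 0.99 and MXRA8, a receptor for arthritogenic alphaviruses, by 2.47, with line means that overlapped. None of the 5 passed with the line as the unit.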
